A study of Mus musculus with 13 samples.

Results

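Among 51971 regions of C2C12 muscle cells that carried an H3K27ac peak in wild type at 48 h of differentiation, 2687 (5.17%) kept a peak when hotspot H1 was deleted and had none in any of the 3 lines that lacked hotspot H3. These are called H3-lost regions here, where lost means that the deposited list of a line held no peak there. They were found by merging peaks that shared at least 1 base among the lists of wild type and the 4 hotspot lines at 48 h, which gave 189668 merged regions in all. The set was chosen by the presence or absence of peaks in those 5 lists, so its pattern across them is a description and not a result. The time course and the Myod1 knockout played no role in the choice.

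C2C12 is a mouse myoblast line whose cells leave the cell cycle and fuse into myotubes when serum is lowered. Acetylation of lysine 27 on histone H3 (H3K27ac) marks active promoters and enhancers, the stretches of DNA that raise transcription of genes from near or far. MyoD, the product of Myod1, is a transcription factor that opens muscle enhancers and drives differentiation. Clusters of strong enhancers are called super-enhancers, and the submitters use the word hotspot for the sites they deleted.

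Chromatin was immunoprecipitated with an H3K27ac antibody and sequenced as paired ends. Unedited wild-type cells were profiled 24 h before differentiation medium (-24 h), at the change of medium (0 h) and after 6, 12, 24, 48 and 72 h in medium with horse serum. At 48 h the edited lines were also profiled, all made with CRISPR/Cas9. The H1 line lacked hotspot H1 and the H3 line lacked hotspot H3. In the H23 line H3 had been removed from cells already lacking H2, and in the H34 line from cells already lacking H4. The Myod1 knockout line was made to lose MyoD. A CRISPR control at 48 h is also labelled, and its library was not analysed here. Each condition had 1 library from 1 line, so a deletion and any other difference of that line or library cannot be told apart, and nothing was tested between conditions. A peak list of a histone mark gives no check that MyoD was absent or that a hotspot was gone.

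The lists held 55585 peaks in the Myod1 knockout, 69251 to 101331 in the 7 wild-type libraries and 103134 to 137960 in the 4 hotspot lines. Their weakest peaks differed, with a lowest −log10 p of 4.13 in wild type at 48 h, 4.02 in the Myod1 knockout and 3.01 to 3.03 in the hotspot lines. A hotspot line could therefore keep a peak too weak for the wild-type list. Read depth was not given, so absence of a peak means only that none was listed. In a bulk library, fewer cells carrying the mark and less mark per cell cannot be told apart. On chromosome 14 the H34 list was thin, with 2.09% of its peaks there against 3.20% to 3.70% in the other hotspot lines and the wild-type libraries and 2.70% in the Myod1 knockout.

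The H3-lost regions were weak in wild type, and as merged regions they were narrow. Their median −log10 p at 48 h was 8.92 (quartiles 7.11 and 11.8), while the median was 13.9 over all wild-type regions and 20.5 over the 32431 regions with a peak in all 5 lists. The median H3-lost region stood at percentile 24.1 of wild-type strength. Its fold enrichment at the summit, as the authors deposited it, was 5.30 against 6.93 over all wild-type regions. Median width of the merged region was 467 bp against 1054 bp, and 2578 of the 2687 contained a single wild-type peak. These widths follow in part from the rule, since H3, H23 and H34 peaks can widen only the other regions. Median width was 246 bp in regions missing in all 4 hotspot lines and 1520 bp in those with a peak in all 5 lists. In the H1 line the H3-lost regions were similarly weak by rank. Their median percentile among the regions with wild-type and H1 peaks was 18.5 there and 17.8 in wild type.

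Splitting all wild-type regions into 10 deciles by −log10 p, weakest first, showed a decline at every step. Decile 1 held 577 H3-lost regions, 11.1% of its regions (95% Wilson interval 10.3% to 12.0%). In the middle of the range it was 5.60% in decile 5 and 4.41% in decile 6. Only 2 H3-lost regions, 0.0385%, fell in decile 10. In all, 82.9% of them lay in the weaker 5 deciles. None ranked among the 1000 strongest wild-type regions, and 2 ranked among the 5000 strongest. These intervals cover counting error alone, since regions next to each other are not independent. Weakness was not particular to this set. The weaker 5 deciles held 92.4% of regions with an H3-line peak alone, 92.0% with an H23 peak alone and 88.7% with an H34 peak alone. They held 94.2% of regions missing in all 4 hotspot lines and 79.5% of those missing in the H1 line alone.

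**Figure D1:**
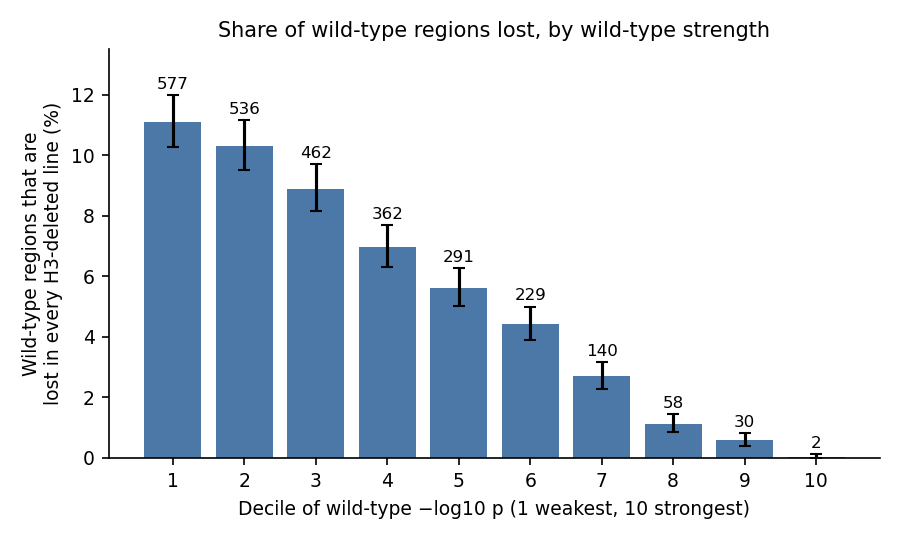
Share of wild-type regions with an H1 peak and none in any H3-deleted line (%), by decile of wild-type −log10 p at 48 h. Bars carry 95% Wilson intervals, with the number of such regions above each bar. The share falls from 11.1% in the weakest decile to 0.0385% in the strongest.

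At the edge of the rule, the regions just inside had an H3-line, H23 or H34 peak beside them but sharing no base. Regions at chr10:94938765-94939201 and chr7:74646778-74647162 directly adjoined such a peak, and the one at chr17:44635264-44635609 was 1 bp away. Just outside, 3 regions were kept out by an H23 peak with a −log10 p of 3.03, at the floor of that list. They lay at chr11:22791576-22791996, chr2:152683203-152683557 and chr7:91478025-91479084. All positions are in build mm9 and count from 1. A further 3251 regions had wild-type and H1 peaks and a peak in exactly 1 H3-deleted line, and in 422 of them (13%) that peak had a −log10 p below 5.

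How far the loss reached around each region varied widely. The nearest peak of any H3-deleted line lay a median 2158 bp away. By single line the median was 9099 bp for H3, 5647 bp for H23 and 5180 bp for H34. For 1066 H3-lost regions (39.7%) the nearest peak of any H3-deleted line was within 1000 bp. It was within 5 kb for 1677 regions (62.4%) and within 10 kb for 1955 (72.8%). Whether wild type also had that nearest peak was not checked. At the far end, 319 regions (11.9%) sat in stretches of at least 200 kb without a single peak of the H3, H23 or H34 line. Of all wild-type regions 3.0% overlapped such a stretch by at least 1 base, counting regions at its edges that can hold a peak of those lines. Regions wholly inside lacked those peaks by construction, as H3-lost regions do by the rule, so the shares are not like for like. Requiring no H3-deleted line peak within 1 kb left 1621 regions, and merging peaks within 1 kb before the rule was applied left 1280. Dropping the requirement on the H34 line gave 4171.

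The Myod1 knockout list almost never had a peak at these sites. Of the 2687 H3-lost regions 2601 (96.8%, 95% Wilson interval 96.1% to 97.4%) had no Myod1 knockout peak, while 53.6% of all wild-type regions had none. Among the 40686 other regions with wild-type and H1 peaks the share was 42.3%. The Myod1 knockout list was also the shortest of the 12 lists. Weak regions lacked a Myod1 knockout peak more often in general, so shares were compared within deciles of wild-type strength. Region width, which also bears on overlap with a peak, was not matched. In decile 1 the share was 98.4% of H3-lost regions and 78.2% of the others. In decile 7 it was 97.9% against 39.1%, and in decile 9 93.3% (28 of 30) against 16.5%. From decile 1 to decile 7, 95.2% to 98.4% of H3-lost regions had no Myod1 knockout peak.

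Absence from the Myod1 knockout list was not particular to this set. Of the 15 other patterns of presence in the 4 hotspot lines, 7 had shares from 94.5% to 99.1% and 8 had lower ones, from 32.0% in regions with a peak in all 5 lists to 89.0%. The share was 99.1% among 225 regions with an H3-line peak and none in the other hotspot lines, 94.6% among 725 with an H23 peak alone and 96.2% among 1044 with an H34 peak alone. It was 98.9% among 3306 regions missing in all 4 hotspot lines. In the 1602 regions missing in the H1 line alone it was 84.2%.

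A small group of 86 H3-lost regions kept a peak in the Myod1 knockout. Of these, 61 (70.9%) had a peak at one of the other time points, against 43.5% of all H3-lost regions and 75.5% of all wild-type regions. At -24 h, before differentiation, 30 of the 86 (34.9%) had one, against 14.5% of all H3-lost regions. Their median width of 624.5 bp compared with 463 bp in the rest, and 9 of the 86 were on chromosome 14, against 144 of the other 2601. Of the 178 H3-lost regions with a peak at all 6 other times, 17 (9.55%) had a Myod1 knockout peak. Of the 1519 with no peak at any other time, 25 (1.65%) had one.

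Across the wild-type time course, H3-lost regions were thinly marked. The share with a peak was 14.5%, 21.6%, 21.8%, 27.2%, 22.9% and 24.1% at -24, 0, 6, 12, 24 and 72 h in turn. The share was lowest before differentiation and highest at 12 h, the library with the most peaks among the wild-type lists. For all wild-type regions the shares in the same order were 55%, 61.1%, 61.6%, 65.4%, 56.6% and 52.7%. There the last time point was the lowest, whereas in H3-lost regions 72 h was second only to 12 h.

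More than any other state, these regions had a peak only at 48 h: 1519 of 2687 (56.5%) had none at the other 6 times, compared with 24.5% of all wild-type regions. A peak at all 6 other times was found in 178 (6.62%), compared with 40.2%. The most common of the remaining patterns was a peak at 72 h alone, in 151 regions. Next came a peak from 0 h to 72 h but not at -24 h, in 81. The H3-lost regions showed 60 different patterns over the 6 times. Of the 1168 with any such peak, the first came at -24 h in 389, 0 h in 252, 6 h in 127, 12 h in 166, 24 h in 83 and 72 h in 151. A peak at 48 h alone was not particular to this set. It was found in 78.7% of regions with an H3-line peak alone, 67.2% with an H23 peak alone and 50.9% with an H34 peak alone. For regions missing in all 4 hotspot lines it was 73.4%, and for those missing in the H1 line alone 45.9%. A peak at all 6 other times was found in 0.444% to 7.57% of these patterns. The 48 h lists came in another format than the time course lists, so format and time cannot be told apart.

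**Figure D2:**
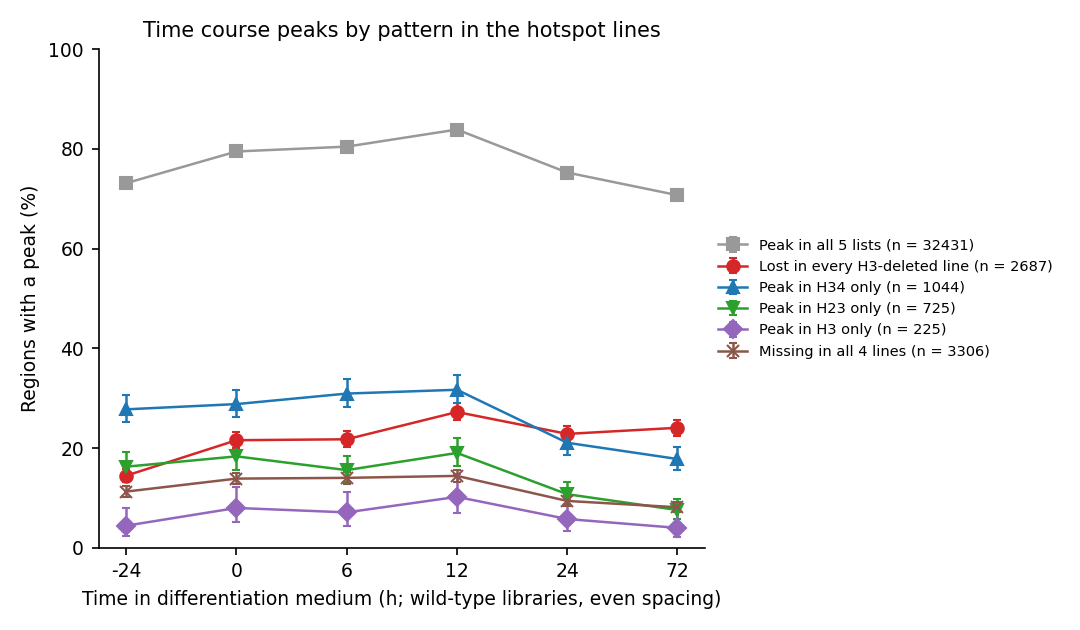
Share of 48 h wild-type regions (%) with a peak in each other wild-type library, by which hotspot lines had a peak, with 95% Wilson intervals; times are evenly spaced on the axis. H3-lost regions (red) go from 14.5% at -24 h to 24.1% at 72 h, while the H34-only regions go from 27.8% to 17.8%.

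Late regions were defined as those with no peak at -24 h and 0 h and a peak at 24 h or 72 h. Of the H3-lost regions 396 (14.7%, 95% Wilson interval 13.4% to 16.1%) were late, against 7.34% of all wild-type regions and 7.22% of the other regions with wild-type and H1 peaks. Fewer were late in patterns of somewhat weaker regions, whose median −log10 p was 8.0 to 8.51: 6.22% of regions with an H3-line peak alone, 4.0% with an H23 peak alone, 7.47% with an H34 peak alone and 5.14% of those missing in all 4 lines. In 2 patterns with the same median of 8.92 as the H3-lost regions, those with H3 and H23 peaks alone and those with H23 and H34 peaks alone, the shares were 5.11% (n = 235) and 6.22% (n = 1189). Counting only regions with some time course peak, 33.9% of H3-lost regions were late (396 of 1168), 29.2% of H3-only regions (14 of 48) and 8.48% of the other regions with wild-type and H1 peaks. The value turned on the definition. A peak at both 24 h and 72 h left 3.87%, and weighting the deciles of strength as in regions with a peak in all 5 lists gave 24.2%, in which decile 10 rests on 2 regions.

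The late share varied with strength differently in the 2 groups, a difference that was not tested. Among the other regions with wild-type and H1 peaks, the late share fell from 11.2% in decile 1 to 3.53% in decile 9. Among H3-lost regions it was 12.0% in decile 1, 15.6% in decile 3 and 14.3% in decile 7. It reached 29.3% in decile 8 (17 of 58, 95% Wilson interval 19.2% to 42.0%) and 26.7% in decile 9 (8 of 30, 14.2% to 44.4%). The gap between the groups was therefore within counting error in deciles 1 and 2, where the intervals overlapped, and widest among the few strong H3-lost regions. Of the 396 late H3-lost regions 17 had a Myod1 knockout peak.

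**Figure D3:**
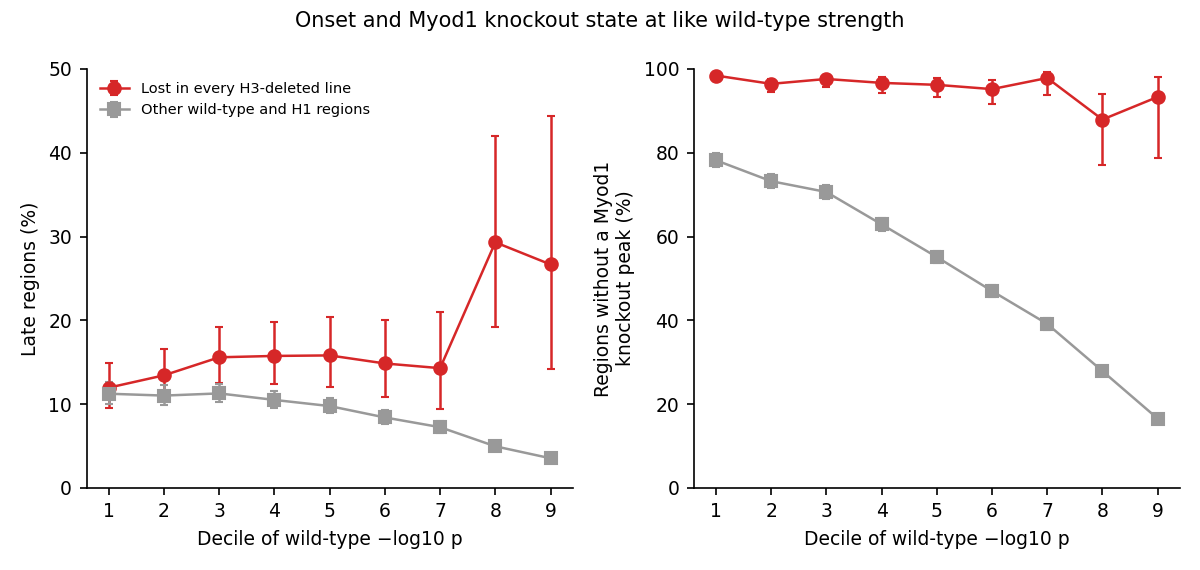
Share of late regions (left, %) and of regions without a Myod1 knockout peak (right, %) by decile of wild-type −log10 p, for H3-lost regions (red) and other regions with wild-type and H1 peaks (grey), with 95% Wilson intervals; the strongest decile, with 2 H3-lost regions, is not drawn. The late share reaches 29.3% in decile 8 of H3-lost regions against 4.96%, and the knockout share stays at or above 87.9% while it falls to 16.5% in the others.

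The late share was not particular to loss in every H3-deleted line. Wild-type regions fall into 16 patterns of presence in the 4 hotspot lines, and by late share the H3-lost pattern ranked 4th. The highest, 22.4%, belonged to 646 regions with H1 and H3 peaks and none in H23 and H34. Regions with H1, H3 and H23 peaks had 17.6% (n = 1176) and those with H1, H3 and H34 peaks 15.3% (n = 940). All 8 patterns with an H1 peak ranged from 5.78% to 22.4%, and the 8 without one from 4.0% to 7.47%. The lowest value with an H1 peak was that of the regions with a peak in all 5 lists.

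H3-lost regions lay close to one another. Each H3-lost region was taken in turn, so a pair of them was counted from both sides. Of the wild-type neighbours within 100 kb, 15.8% (5052 of 31909) were H3-lost too, 3.06 times the 5.17% share of H3-lost regions among wild-type regions. The share was 31.9% for gaps up to 5 kb, 18.9% from 5 to 10 kb and 11.5% from 50 to 100 kb. It had fallen to 5.59% between 500 and 1000 kb. Clustering of this degree was a feature of the other patterns too. The same ratio was 3.01 for H3-only regions, 2.91 for H23-only, 3.70 for H34-only, 2.89 for regions missing in H1 alone and 2.15 for regions missing in all 4 lines. For regions with a peak in all 5 lists it was 1.13.

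**Figure D4:**
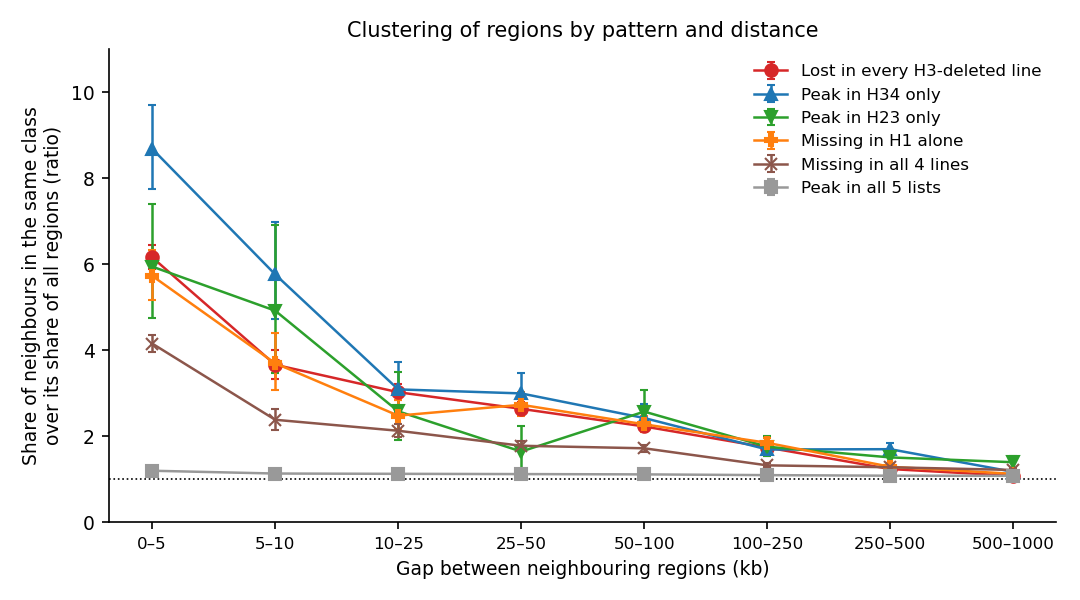
Share of neighbours in the same class over that class's share of all wild-type regions (ratio, 1 dotted), by gap between the regions (kb), with 95% Wilson intervals. The intervals treat neighbours as independent, although pairs within a class are counted from both sides. The H3-lost regions (red) fall from 6.16 within 5 kb to 1.08 between 500 and 1000 kb. The regions with an H23 peak alone go from 1.65 at 25 to 50 kb to 2.57 at 50 to 100 kb, and the few H3-only regions are not drawn.

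Joining H3-lost regions at most 100 kb apart gave 1503 groups, of which 984 were single regions. The remaining groups held 1703 regions (63.4%). A total of 83 loci had 5 or more, with 581 regions (21.6%) among them, and 9 loci had 10 or more. Loci of 5 or more numbered 81 for regions missing in all 4 lines, 22 for those missing in H1 alone, 12 for H34-only, 2 for H23-only and 0 for H3-only regions, sets that differ in size. The 83 spans ran from 10.3 to 303 kb with a median of 118 kb, and H3-lost regions made up 44.2% of their 1313 wild-type regions. The number of loci was 38 when joined at 25 kb, 40 without regions that had an H3-deleted line peak within 1 kb, 11 after merging peaks within 1 kb and 2 from members at or above the median wild-type strength.

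Summed over the 83 loci, peaks covered 942 kb in wild type at 48 h, 9.15% of the summed spans. The H1 line covered 1696 kb, 1.80 times as much, and exceeded wild type in 72 of the 83. Over the whole genome the H1 list covered 1.55 times as much as wild type. In the H3 line coverage inside the loci was 0.428 of wild type, in H23 0.586 and in H34 0.603, although over the whole genome those lists covered 1.29, 1.79 and 1.61 times as much. These ratios follow in part from the choice of the regions. The Myod1 knockout, which the choice did not use, covered 0.149 of wild type in the loci and 0.403 over the genome. Coverage at 72 h was 0.505 in the loci and 0.548 over the genome, and at -24 h it was 0.379 and 0.590.

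In 65 of the 83 loci no H3-lost region had a Myod1 knockout peak, and in 22 no wild-type region in the span had one. Onset differed from locus to locus. In 26 loci no H3-lost region had a peak at -24 h or 0 h, and 19 of these held at least 1 late region. In 11 loci at least 50% of the H3-lost regions had a peak already at -24 h. Inside the loci 54.0% of H3-lost regions had some time course peak, against 40.6% outside them, and 16.2% against 14.3% were late. The 15 loci with most H3-lost regions are given next by their course over time.

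The locus with most H3-lost regions, on chromosome 3 at 37702825 to 37976675, held 23 among 39 wild-type regions over 274 kb. Of these 23 regions 4, 2, 5, 6, 5 and 2 had a peak at -24, 0, 6, 12, 24 and 72 h, and 12 had one at any of these times. None had a Myod1 knockout peak. The H1 line had 129 peaks across the span, wild type 45, H3 8, H23 12, H34 20 and the Myod1 knockout 6. The peaks of the H3-deleted lines sat at a few positions near the start and middle of the span, and their next peak to the right was 154 kb beyond its end.

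On chromosome 14 at 23631415 to 23934300 most H3-lost regions were marked at each of the other times. All 16 H3-lost regions, of 23 wild-type regions, had some time course peak, numbering 14, 16, 13, 14, 12 and 15 over the 6 times from -24 h to 72 h. None was late. The H3 and H34 lines had no peak in the 303 kb span, H23 had 1, the Myod1 knockout had 4 and the H1 line had 51. The neighbouring peaks of an H3-deleted line were 823 kb to the left and 1085 kb to the right. Over this whole stretch of 2211 kb, the time course lists had 95 to 151 peaks, wild type at 48 h 34, H1 111, the Myod1 knockout 5, H23 1 and H3 and H34 0. The 48 h wild-type list was thus itself sparse here beside the other wild-type times, and the part this and the thin H34 list on chromosome 14 played was not tested.

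A second locus on chromosome 14, at 9124978 to 9165670, was compact, with 11 of its 12 wild-type regions H3-lost within 40.7 kb. No peak of the H3, H23 or H34 line fell inside it. Only 2 of the 11 regions had a peak at -24 h, and 7, 9, 9, 7 and 9 had one at the later times in order. Here 4 of the 11 kept a peak in the Myod1 knockout, more than in any other of the 15 loci. It includes the strongest H3-lost region of all, at 9126307 to 9127692, with a wild-type −log10 p of 85.7, rank 1367 of the wild-type regions, and peaks at all 6 other times and in the Myod1 knockout.

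Peaks on the H3-lost regions came mostly after -24 h in several loci. On chromosome 6 at 30421510 to 30641192, 15 of 23 wild-type regions were H3-lost, and of these 1, 8, 6, 8, 9 and 7 had a peak at the 6 times in order. On chromosome 10 at 23171085 to 23396495, 14 of 23 were H3-lost, and the 6 counts were 4, 10, 6, 6, 6 and 2. The 9 H3-lost regions of chromosome 4 at 81574759 to 81814008 gave 1, 6, 5, 6, 6 and 1. In the last of these, coverage by H1 peaks (2.55% of the span) was below that of wild type (5.56%). The locus on chromosome 6 went the other way, with 35.4% of the span covered in H1 and 10.9% in wild type.

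Another locus on chromosome 4, at 75905151 to 76071795, had 9 H3-lost regions among 16 wild-type regions. Of the 9, the regions with a peak at the 6 times numbered 4, 7, 5, 3, 4 and 4, and none was late. The H3 and H34 lines listed no peak over the surrounding 1171 kb, while H1 had 67, wild type at 48 h 20, H23 10 and the Myod1 knockout 6. The locus itself held 49 of these H1 peaks, 19 of the wild-type, all 10 of the H23 and 4 of the Myod1 knockout peaks. Outside it the stretch was thus nearly empty in wild type at 48 h too.

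Among the 15, late regions made up the highest share on chromosome 3 at 101300237 to 101403483. Of its 11 H3-lost regions among 17, none had a peak at -24 h or 0 h, 1 had one at each of 6, 12 and 24 h, and 5 had one at 72 h. All 5 of these were late. Wild type had 20 peaks over the 103 kb and H1 74, covering 43.2% of the span, while H3 had 1, H34 2, H23 9 and the Myod1 knockout 0. Similar but earlier was chromosome 13 at 46509220 to 46727078, where 11 of 16 regions were H3-lost. There the regions with a peak numbered 2, 4, 4, 5, 6 and 6 over the 6 times, and 3 were late. That span had 7 H3 peaks and no H23, H34 or Myod1 knockout peak against 87 in H1. On chromosome 12 at 85467131 to 85523934, 8 of 13 regions were H3-lost, and of these 0, 2, 3, 6, 5 and 5 had a peak at the 6 times. In that span all 3 H3-deleted lines covered more bases than wild type, 12.0% to 16.9% against 9.63%. Of its 13 wild-type regions 3, 4 and 3 had an H3, H23 or H34 peak. The H3-lost regions there thus shared the span with other peaks of these lines, whether or not wild type had them.

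**Figure D5:**
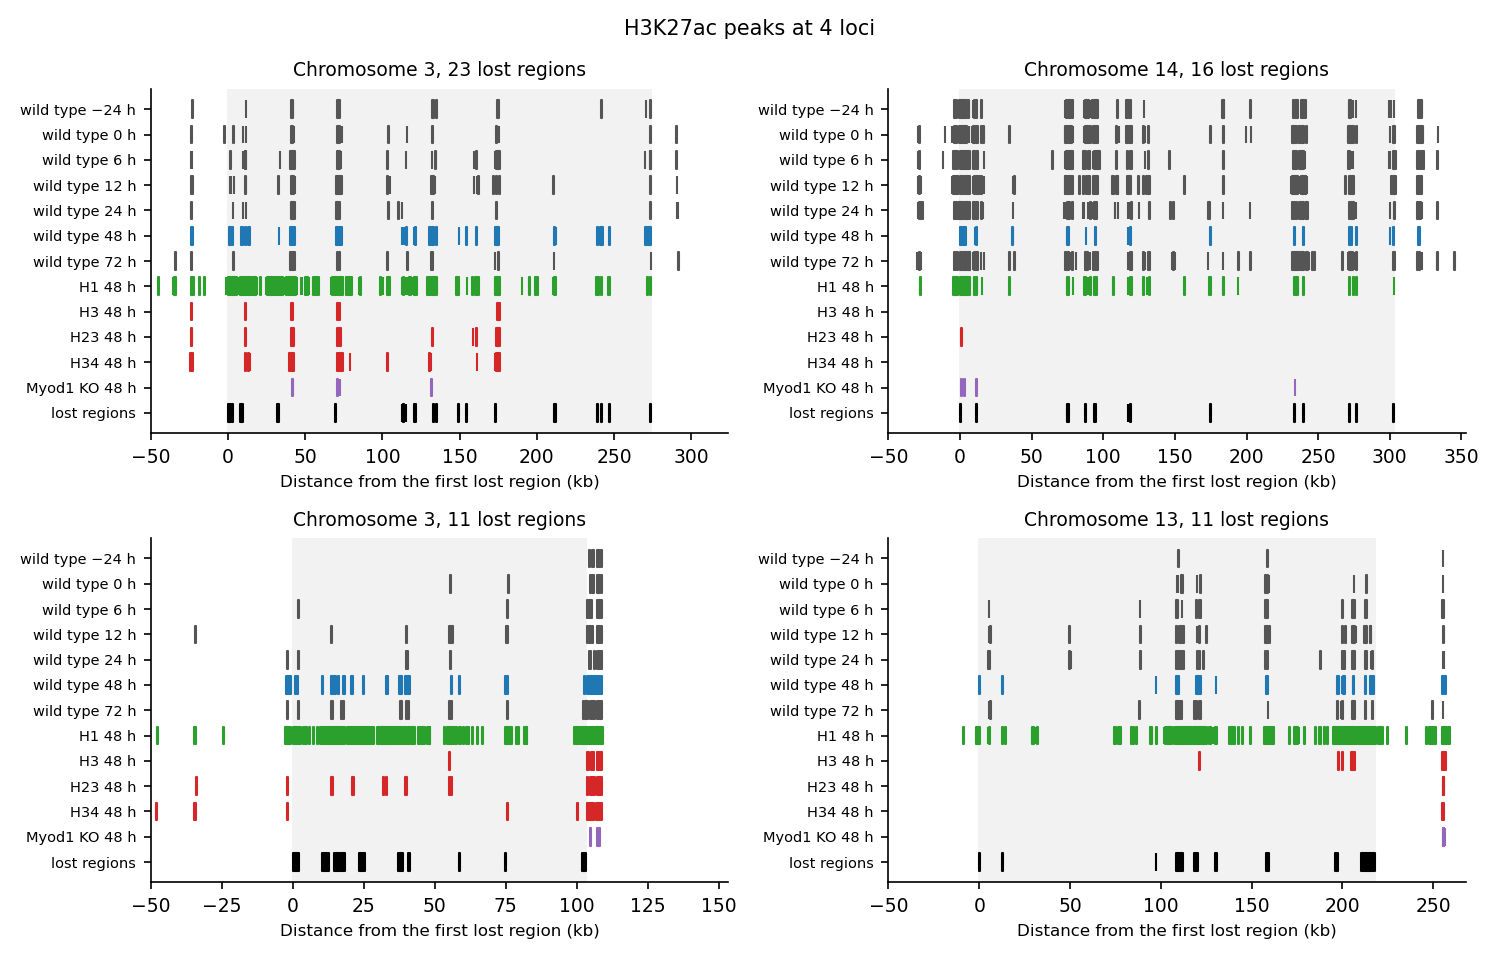
H3K27ac peaks of the 12 libraries at 4 loci, those ranked 1, 3, 7 and 8 by number of H3-lost regions. The axis is distance from the first H3-lost region (kb). Each bar is a peak, the shaded span is the locus and the bottom row marks its H3-lost regions. The H1 row is dense in the loci on chromosomes 3 and 13, the chromosome 14 locus has 60 to 77 peaks at each time other than 48 h, and the H3, H23 and H34 rows there hold 1 peak in all.

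The other 5 of the 15 varied in how many H3-lost regions were marked at another time. On chromosome 15 at 66507492 to 66696644, 16 of 44 wild-type regions were H3-lost and 8 of them had some time course peak. Of these 16, 2 had a Myod1 knockout peak. The H3, H23 and H34 lines had 26, 33 and 47 peaks in that span, against 53 in wild type at 48 h. Not all of these lay on wild-type regions, since 8, 13 and 16 of the 44 had an H3, H23 or H34 peak. On chromosome 10 at 118421325 to 118513826, 2 of 10 H3-lost regions had some time course peak. The median −log10 p of those 10 was 6.91, the lowest among the 15 loci. The large wild-type acetylation domain with most H3-lost regions lay here, and the domain at 118418145 to 118524660 held 10 H3-lost regions among 30. On chromosome 18, the locus at 5921039 to 6039866 had 9 of 20 and that at 5179667 to 5430854 had 9 of 32, with 2 and 3 of their 9 regions marked at another time. On the X chromosome at 163369110 to 163643109, 9 of 19 regions were H3-lost, 7 had a time course peak, 3 were late, and no Myod1 knockout peak lay in the 274 kb.

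The share of H3-lost regions in large acetylation domains was below that of all wild-type regions, as it was in the other patterns compared that lack peaks in some lines. Wild-type peaks within 12.5 kb of each other were joined, and 761 of 21096 domains lay above the bend of the curve of summed width times fold against rank. They contained 285 H3-lost regions (10.6%, 95% Wilson interval 9.50% to 11.8%), against 13.7% of all wild-type regions. The share was 12.4% of H3-only regions, 8.14% of H23-only, 8.43% of H34-only, 8.61% of those missing in H1 alone and 7.86% of those missing in all 4 lines. Of the 761 large domains 166 held at least 1 and 6 held 5 or more.

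By chromosome, the share of wild-type regions that were H3-lost ranged from 3.34% on chromosome 5 to 8.37% on chromosome 3, which also had 11 of the 83 loci. Chromosome 14 came next with 8.18%. Its H3-lost regions differed in time, since 60.1% had a time course peak and 19.0% a peak at all 6 other times, against 43.5% and 6.62% of all H3-lost regions. On chromosome 14 37.8% of wild-type regions lacked an H34 peak, against 19.5% over the genome. Lacking peaks were 29.9% there in H3 (27.8% over the genome), 23.4% in H23 (20.4%) and 17.6% in H1 (16.5%). The part of the H34 library in the chromosome 14 values was not tested. Without chromosome 14 there were 2534 H3-lost regions, of which 14.6% were late and 97.0% lacked a Myod1 knockout peak.

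The strongest H3-lost regions after the one on chromosome 14 were few and unlike one another. A region on chromosome 14 at 15674339 to 15676578 (−log10 p 50.7) had peaks from 6 h on and none at -24 h and 0 h, and one on chromosome 2 at 59202780 to 59203861 (46.4) had them from 12 h on. Both were late and neither had a Myod1 knockout peak. A region on chromosome 10 at 83800443 to 83802716 (46.2) and one on chromosome 14 at 54726336 to 54726998 (45.0) had peaks at all 6 other times. The chromosome 10 region was 52041 bp from the nearest peak of an H3-deleted line, the chromosome 2 region 213 bp.

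Only 46 H3-lost regions were 2000 bp or wider. The widest, on chromosome 16 at 45797195 to 45801256, spanned 4062 bp and had peaks at all 6 other times. Next came 2 regions of the chromosome 13 locus, at 46617481 to 46621318 and 46719611 to 46723123, with peaks at all 6 times and at all but -24 h. The fourth, on chromosome 10 at 69518096 to 69521584, had peaks from 6 h on. The fifth, on chromosome 15 at 66606423 to 66609772, was marked at 48 h alone. None of these 5 had a Myod1 knockout peak.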

How the data were processed

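H3K27ac ChIP-seq peak lists of 12 of 13 labelled libraries were used. Peaks were called with MACS2 2.1.0 on mm9, per the submitters' processing notes. Aligner, control library, filters, cutoffs and read depth are not given in the sources used here. The deposited time course lists give each peak a score of unstated scale, which was not used to rank or filter peaks. The deposited 48 h lists give a score, a fold enrichment (ratio), a −log10 p-value and a −log10 q-value per peak, all the authors' own values, used only within a list.

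Peaks sharing 1 base were merged, and a region had a peak in a library when 1 base overlapped. A region's strength was its highest wild-type −log10 p. With 1 library per condition, shares carry 95% Wilson intervals and no test was run. The regions, lists and comparisons were chosen with earlier results of these data known. Named were the 15 loci with most members (ties by shorter span), the 5 strongest and 5 widest members and 3 regions on each side of the rule. No mm9 annotation or sequence was used here, so no gene is named and the planned gene lists and motif searches were not run. Code was tested on simulated peaks. Alternatives were a 50% overlap, −log10 p of at least 5, equal numbers of peaks, 1 kb merging or distance, other joining distances, other definitions of late, weighting by strength, dropping 1 line and, chosen after seeing the data, leaving out chromosome 14. Equal numbers were taken by −log10 p from the 5 lists of the rule only. The −log10 p filter covered those lists and the Myod1 knockout list. The time course lists were left whole in both. The software was pandas 2.3.3 and numpy 2.4.6 under Python 3.11.15, with matplotlib 3.10.9 for plots.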

Additional observations from a re-analysis of the deposited data

How the results depend on the processing

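Over 46 alternatives to 6 results, 24 stayed within the counting interval (for counts, within 1.5 times) and 22 moved. The late share was 12.9% with a 50% overlap, 18.9% with equal numbers of peaks, 24.2% weighted over deciles of strength, 12.1% without a peak at 6 h and 3.87% with peaks at both 24 h and 72 h. The share without a Myod1 knockout peak was 92.8% with equal numbers of peaks and 87.6% weighted over deciles, where decile 10 rests on 2 regions, of which 1 had no such peak. Neighbours within 100 kb that were H3-lost made up 15% with a 50% overlap, 12.0% with peaks within 1 kb merged, 14.6% without regions that had an H3-deleted line peak within 1 kb and 15.3% without chromosome 14. At 50 kb they made up 18.7% and at 25 kb 22.1%. Regions numbered 1280 with 1 kb merging, 1621 without an H3-deleted line peak within 1 kb and 4171 without the requirement on H34. Loci numbered 11, 40, 38 (joined at 25 kb) and 2 (stronger members alone). Median strength percentile was 31.1 with equal numbers of peaks and 21.7 with 1 kb merging. The cause of these moves was not tested beyond what each construction fixes. No paired analysis was possible because each condition had 1 library and no test was run. Depth was unknown, so a missing peak cannot be told from one that was too shallow to call, and no value here has a replicate.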

Other observations

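Some groups of H3-lost regions outside the rule for named loci, picked after their values were seen, had no other kind of wild-type region between their members. On chromosome 18 at 68878818 to 68966814, all 8 wild-type regions were H3-lost and no peak of the H3, H23 or H34 line or the Myod1 knockout fell in the 88.0 kb, while H1 had 10 peaks and wild type at 48 h 9. Of these 8 regions 3, 7, 5, 6, 4 and 5 had a peak at -24, 0, 6, 12, 24 and 72 h. On chromosome 9 at 119383583 to 119393819, 5 consecutive H3-lost regions had peaks at every one of the 6 other times. On the X chromosome at 9652365 to 9683475, 4 of 5 consecutive H3-lost regions were late and none had a peak at -24 h or 0 h. The longest such run, 12 regions on chromosome 14 at 23705760 to 23903970, lay inside the larger chromosome 14 locus.

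On chromosome 1 at 136172111 to 136309156, 8 of 15 wild-type regions were H3-lost, with no peak from -24 h to 12 h, 2 at 24 h and 5 at 72 h. None of the 8 had a Myod1 knockout peak, and H1 peaks covered 26.4% of the span against 8.43% in wild type. The H3, H23 and H34 lines had 19, 14 and 8 peaks in the span, covering 6.06%, 4.33% and 3.43% of it. This locus too was outside the rule for named loci and picked after its values were seen.

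Stretches of at least 200 kb without a peak of any H3-deleted line numbered 2026, and 176 of them held an H3-lost region. On chromosome 9 at 111940487 to 113600306 such a stretch of 1660 kb held 8 H3-lost regions. There the time course lists had 12 to 25 peaks, wild type at 48 h 10, H1 33 and the Myod1 knockout 0. On chromosome 14 at 46819912 to 47254467, the time course lists had 23 to 28 peaks, wild type at 48 h 13, H1 9 and the Myod1 knockout 0, with 5 H3-lost regions.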
